A study of Mus musculus with 6 samples.

Results

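The 10 genes described here encode 8 CC chemokines that draw monocytes into tissue, Ccl2, Ccl7, Ccl8, Ccl12, Ccl3, Ccl4, Ccl6 and Ccl9, and the receptors Ccr1 and Ccr2. They were chosen by symbol from the 34590 gene symbols of the count files, and all 10 were found and passed the filter on low counts, as did 16691 symbols in all. The samples were biopsies of mouse skin on the C57BL/6 background. The wild type group (Tnip1+/+) and the knockout group (Tnip1-/-) had 3 mice each, and imiquimod had been applied to the skin surface of all 6 for 2 days. Imiquimod is a Toll-like receptor agonist that causes a psoriasis-like inflammation in mouse skin, and the protein made from Tnip1 binds ubiquitin chains and A20 and dampens NF-kB activity. The comparison asks how the RNA level of each chemokine or receptor gene differs between the genotypes under imiquimod. Untreated skin was not analysed here, so no value below is a response to imiquimod. The labels give neither the age of the mice nor the deleted part of Tnip1.

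Chemokines are small secreted proteins that steer white blood cells along a gradient by binding G-protein-coupled receptors on them. CCL2, CCL7 and CCL12 are monocyte chemoattractant proteins (MCPs) that act mainly through CCR2, the receptor that inflammatory monocytes need to leave the bone marrow and enter inflamed tissue. CCL8 belongs to the same family by sequence, although mouse CCL8 is known to act through CCR8. CCL3, CCL4, CCL6 and CCL9 are macrophage inflammatory protein (MIP) type chemokines. CCL3, CCL6 and CCL9 bind CCR1, a receptor of monocytes, macrophages and neutrophils.

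The genes of CCL12 and CCL8 lie next to each other on chromosome 11 and had fold changes of opposite sign, that of Ccl8 past the test, so the 250 bases before their start sites are shown. The sequences are from RefSeq (GRCm38.p6), whereas the submitters' processing notes name mm9. Ccl8 is at chr11:82114935-82115184 and Ccl12 at chr11:82101595-82101844, both on the plus strand, written 5′ to 3′. Capitals mark the aligned stretches of at least 8 identical bases.
Ccl8: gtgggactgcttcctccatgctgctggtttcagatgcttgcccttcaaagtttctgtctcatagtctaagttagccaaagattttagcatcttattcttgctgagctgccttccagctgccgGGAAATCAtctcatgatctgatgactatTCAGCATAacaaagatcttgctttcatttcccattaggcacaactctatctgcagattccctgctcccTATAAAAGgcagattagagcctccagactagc
Ccl12: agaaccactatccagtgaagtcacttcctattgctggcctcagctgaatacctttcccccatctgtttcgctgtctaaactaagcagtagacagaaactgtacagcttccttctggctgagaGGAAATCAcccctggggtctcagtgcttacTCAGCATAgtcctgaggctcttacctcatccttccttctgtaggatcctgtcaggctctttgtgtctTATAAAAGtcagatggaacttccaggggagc
In a global alignment 60.0% of the 250 positions were identical, against 49.2% to 57.2% for the other pairs among the 7 members with a promoter in the table. Over aligned bases alone the identity was 65.2%, and other pairs reached up to 67.3%, so the pair does not stand out by that measure. The shared stretch nearest the start site holds TATAAA, the letters of a TATA box, which begins 32 bases before the start in Ccl8 and 31 bases before it in Ccl12. On the gene's strand, TATAAA beginning 20 to 40 bases before the start was present in 1.99% of 32851 RefSeq promoters, and Ccl8 and Ccl12 were the members among them. The letters GGGA and TTCC with 2 bases of any kind between them, a strict form of the NF-kB motif, were in 0 of the 7 member windows on either strand and in 1.21% of all windows. The letters TGANTCA of the AP-1 motif were in the Ccl9 window and in 6.75% of all windows. Such matches describe the letters and say nothing of factor binding.

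The sum of gene counts per library ranged from 24701074 to 31005554 for the wild types and from 19529970 to 25864730 for the knockouts. Tnip1 stood at 26.4 ± 1.55 CPM (counts scaled to a common library size with TMM factors, mean ± SD, n = 3) in wild type and 1.81 ± 0.230 CPM in the knockouts, and fell in every knockout library, as labelled. Library codes in the labels carry the letters IMQ in the wild type and NORM in the knockout group, which are not explained there, while every title gives imiquimod. Any processing batch that goes with the codes cannot be told apart from genotype. Xist and Y-linked counts marked wild type replicate 1 and knockout replicates 1 and 2 as male and the other libraries as female, which the labels do not give. Wild type replicate 2 held 127 counts of 4 Y-linked genes beside 20548 of Xist, against 10362 Y-linked counts in the male wild type library and 4 in wild type replicate 3, and the source of these counts was not tested. Knockout biopsies held less muscle and fat RNA: the summed level of 7 skeletal muscle markers was 9043 to 15698 CPM in wild type and 2920 to 4362 CPM in the knockouts, and that of 7 adipocyte markers was 2471 to 4400 and 134 to 1445 CPM. The lowest adipocyte sum was that of knockout replicate 2, and the highest sums of muscle and fat markers were those of wild type replicate 2. The sum of 7 keratinocyte markers, which checks the labelled tissue, was 6654 to 11038 CPM in wild type and 19365 to 22253 CPM in the knockouts, with Dsg3, Krt14, Krt1 and Krt5 higher and Krt10 lower. In whole skin, a lower level from fewer cells of a type and from less RNA per cell cannot be told apart.

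Of the 10 genes, Ccl8, Ccl3, Ccl4 and Ccr1 rose in knockout skin and none fell (edgeR quasi-likelihood test, Benjamini-Hochberg adjusted p under 0.05 over all genes tested). Ccl2, Ccl7, Ccl12, Ccl6, Ccl9 and Ccr2 did not pass the test. Among all 16691 tested genes 22.3% were called higher, 22.7% lower and 45.1% either way, so 4 of 10 called either way is close to the background. The groups did not overlap for the same 4 genes, against 59.8% of all tested genes (29.2% with the knockouts above). Scaling by library totals alone shifted the median log2 fold change of all genes by -0.15 and left 34.1% of all calls higher in place of 49.6%, while the 4 members called were called there too.

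**Figure D1:**
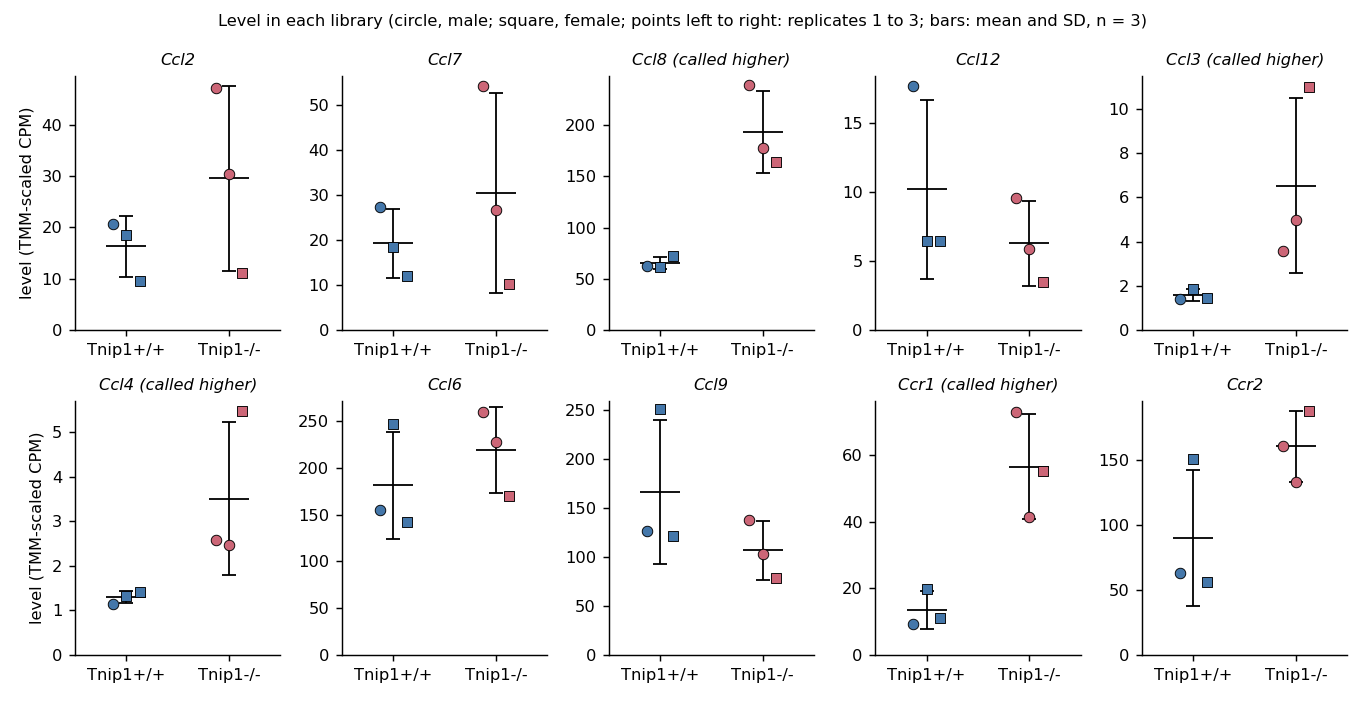
Level of each member in TMM-scaled CPM (vertical axis, starting at 0) in 3 Tnip1+/+ and 3 Tnip1-/- libraries, with male libraries as circles, female libraries as squares, and the mean and SD as bars. The groups are apart for Ccl8, Ccl3, Ccl4 and Ccr1 and overlap for the other 6 genes.

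Ccl8 was the most abundant MCP gene and had the smallest SE of the 10 fold changes. It stood at 62.6, 61.5 and 72.3 CPM in replicates 1, 2 and 3 of the wild type and at 239, 178 and 164 CPM in knockout replicates 1, 2 and 3. Every knockout library was above every wild type library, and the wild type libraries lay close together. Ccl8 rose 2.96-fold (log2 1.57, SE 0.17, edgeR adjusted p = 0.00104). Its log2 fold change was 1.39 to 1.72 over 17 alternative analyses, and it was called in all 17.

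Ccl2, the best known monocyte attractant, overlapped between the genotypes. Its levels were 20.7, 18.6 and 9.48 CPM in wild type and 47.2, 30.4 and 11.1 CPM in the knockouts. The male knockout libraries were the highest, while the female knockout library lay inside the wild type range. The log2 fold change was 0.86 (SE 0.51, edgeR adjusted p = 0.202), 0.30 with sex as a covariate (adjusted p = 0.595) and 1.26 without knockout replicate 3 (adjusted p = 0.0396), which passed the test.

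Ccl7, the gene next to Ccl2, had a similar spread. It stood at 27.3, 18.4 and 12.1 CPM in wild type and 54.3, 26.7 and 10.2 CPM in the knockouts. The female knockout library was the lowest of all 6 and knockout replicate 1 the highest. The log2 fold change of 0.66 (SE 0.57, edgeR adjusted p = 0.368) became 0.013 with sex as a covariate and -0.054 without knockout replicate 1. The count ratio of Ccl2 to Ccl7 was 0.758 to 1.01 in wild type and 0.870 to 1.14 in the knockouts.

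Ccl12, which encodes a further CCR2 ligand found in mice, had a negative fold change that did not pass the test. It stood at 17.7, 6.46 and 6.44 CPM in wild type and 9.52, 5.85 and 3.45 CPM in the knockouts. The groups overlapped, with the male wild type library the highest, and within each sex every knockout library was below every wild type library. The log2 fold change was -0.70 (SE 0.51, edgeR adjusted p = 0.29). With sex as a covariate, chosen after seeing the data, Ccl12 passed the test at -1.06 (SE 0.24, adjusted p = 0.0184), and without wild type replicate 1 it stood at -0.022.

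**Figure D2:**
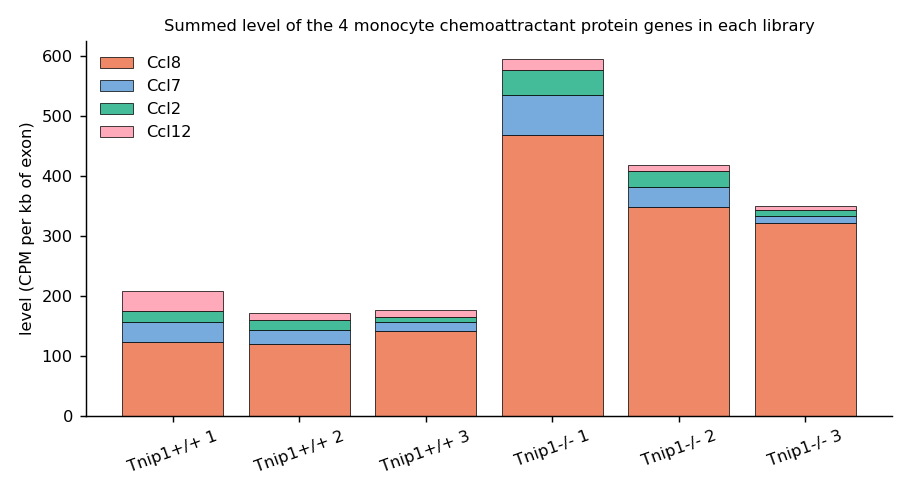
Stacked level of Ccl8, Ccl7, Ccl2 and Ccl12 in CPM per kilobase of annotated exon (vertical axis, starting at 0) for each of the 6 libraries. Ccl8 takes the largest part of every bar, and the knockout bars (350.1 to 595) are all higher than the wild type bars (172 to 208).

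Levels of different genes were compared per kilobase of annotated exon. The MCP genes together summed to 208, 172 and 177 CPM per kilobase in replicates 1, 2 and 3 of the wild type and to 595, 419 and 350.1 in the knockout replicates. Ccl8 made up 59.0%, 70.1% and 80.0% of that sum in wild type and 78.7%, 83.1% and 91.7% in the knockouts, ranges that overlap slightly. Ccl12 made up 6.78% to 15.8% in wild type and 1.83% to 2.98% in the knockouts, without overlap. Taken gene by gene, the level of Ccl8 was apart between genotypes, while those of the CCR2 ligand genes Ccl2, Ccl7 and Ccl12 each overlapped.

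Ccl3, which encodes MIP-1 alpha, was low in wild type skin and higher in knockout skin. It had 46, 55 and 39 counts in the wild type libraries (1.38, 1.87 and 1.44 CPM) and 83, 118 and 211 counts in the knockout libraries (3.58, 5.00 and 11.02 CPM). The groups were apart, and knockout replicate 3, which had the lowest Ccl2 of the knockouts, had the highest Ccl3. Ccl3 rose 4.15-fold (log2 2.05, SE 0.44, edgeR adjusted p = 0.00986), and the log2 value was 1.46 without knockout replicate 3. With the mean level of the muscle and fat markers as a covariate Ccl3 stood at 2.50 and did not pass the test (adjusted p = 0.0731).

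Ccl4, which encodes MIP-1 beta and lies beside Ccl3, followed it at lower counts. It had 38, 39 and 38 counts in wild type (1.14, 1.33 and 1.41 CPM) and 60, 58 and 105 counts in the knockouts (2.59, 2.46 and 5.48 CPM). Again the groups were apart and knockout replicate 3 was the highest. Ccl4 rose 2.70-fold (log2 1.43, SE 0.37, edgeR adjusted p = 0.018). The call was lost without wild type replicate 1 (1.36, adjusted p = 0.0519) and with the muscle and fat covariate (1.95, adjusted p = 0.0773).

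Ccl6, an abundant chemokine gene of resident myeloid cells, stood at 155, 247 and 142 CPM in wild type and 260, 228 and 169.9 CPM in the knockouts. Its gene neighbour Ccl9 stood at 126, 250.2 and 121 CPM in wild type and 138, 103 and 78.6 CPM in the knockouts. Wild type replicate 2 was high for both genes, and the groups overlapped for both. Neither passed the test, Ccl6 at 0.27 (SE 0.25, edgeR adjusted p = 0.398) and Ccl9 at -0.64 (SE 0.33, edgeR adjusted p = 0.151). Without wild type replicate 2 these values were 0.56 and -0.21.

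Ccr1, the receptor gene for CCL3, CCL6 and CCL9, rose in every knockout library. It stood at 9.18, 19.9 and 11.2 CPM in wild type and 73.0, 41.4 and 55.3 CPM in the knockouts. Every knockout library held more than 2 times the level of the highest wild type library, wild type replicate 2. Ccr1 rose 4.22-fold (log2 2.08, SE 0.34, edgeR adjusted p = 0.00378), with log2 values of 1.86 to 2.87 and a call in all 17 alternatives.

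Ccr2, the receptor gene for CCL2, CCL7 and CCL12, stood at 63.5, 151 and 56.3 CPM in wild type and 161, 133 and 188 CPM in the knockouts. Wild type replicate 2 lay inside the knockout range, and the other wild type libraries were well below it. The log2 fold change was 0.84 (SE 0.38, edgeR adjusted p = 0.107). Without wild type replicate 2 Ccr2 passed the test at 1.42 (SE 0.17, adjusted p = 0.00425), so this library decides the call.

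**Figure D3:**
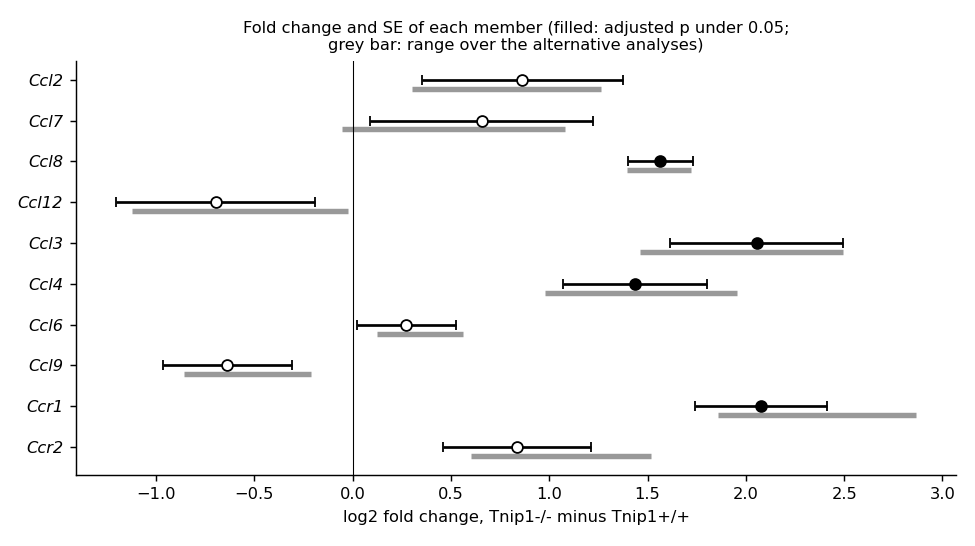
Log2 fold change of each member, Tnip1-/- minus Tnip1+/+ (horizontal axis), with its SE as the error bar and filled points for an adjusted p under 0.05; the grey bar under each point spans the alternative analyses. Of the 10 genes Ccl7 alone has a grey bar that crosses 0.

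Per kilobase of exon, wild type levels ran from Ccl8 (128 ± 11.6) through Ccl6 (101 ± 32.0), Ccl9 (54.4 ± 24.1), Ccl7 (24.1 ± 9.53), Ccl12 (19.0 ± 12.1), Ccl2 (14.3 ± 5.24), Ccr2 (13.3 ± 7.78), Ccr1 (4.73 ± 2.01) and Ccl3 (2.04 ± 0.347) to Ccl4 (1.96 ± 0.207 CPM per kilobase, SD, n = 3). Neighbours in that order differed by less than the larger of their SDs from Ccl7 down to Ccr2, and so did Ccl8 and Ccl6 and the pair Ccl3 and Ccl4. In knockout skin Ccl8 (379 ± 78.4) stood further above Ccl6 (122 ± 25.4 CPM per kilobase), and Ccr1 (19.97 ± 5.59) was near Ccr2 (23.8 ± 4.05 CPM per kilobase). The exons of Ccr2 include several alternative ends, which lowers its value per kilobase. For every gene the length was the union of all annotated exons, with 511 bases for Ccl8, 1795 for Ccl6 and 3045 for Ccl9. In CPM without length, wild type Ccl6 (182 ± 57.5) and Ccl9 (166 ± 73.2) stood above Ccl8 (65.5 ± 5.94). Knockout Ccl6 (219 ± 45.6 CPM) was also above Ccl8 (194 ± 40.1 CPM). The place of Ccl8 above these genes therefore rests on the lengths used.

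Ratios of counts between genes within a library do not depend on scaling. They were taken for the 13 pairs of members with the same role, a choice made after the values were seen, and 9 pairs did not overlap between genotypes. Each of the 9 had an exact two-sided permutation p of 0.1, the smallest that 3 against 3 libraries allow, and 0.144 after Benjamini-Hochberg adjustment over the 13 pairs. Pairs share genes, so they are not separate results. The share over all gene pairs was not computed, and 59.8% of all tested genes did not overlap as single genes.

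The neighbours Ccl6 and Ccl9 gave the tightest such ratio. Counts of Ccl6 over Ccl9 were 1.23, 0.989 and 1.17 in wild type and 1.89, 2.22 and 2.16 in the knockouts, a difference of 0.89 on the log2 scale with SDs of 0.17 and 0.13. Wild type replicate 2, which was high for both genes, did not stand apart in their ratio. Counts of Ccl8 over Ccl12 were 3.54, 9.52 and 11.2 in wild type and 25.1, 30.4 and 47.6 in the knockouts. Counts of Ccr1 over Ccr2 were 0.145, 0.132 and 0.199 in wild type and 0.454, 0.310 and 0.294 in the knockouts. In contrast to these, the Ccl2 to Ccl7 and Ccl3 to Ccl4 ratios overlapped between genotypes. So did Ccl7 over Ccl8 and Ccl2 over Ccl8, the latter at 0.330, 0.302 and 0.131 in wild type and 0.197, 0.171 and 0.0678 in the knockouts.

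**Figure D4:**
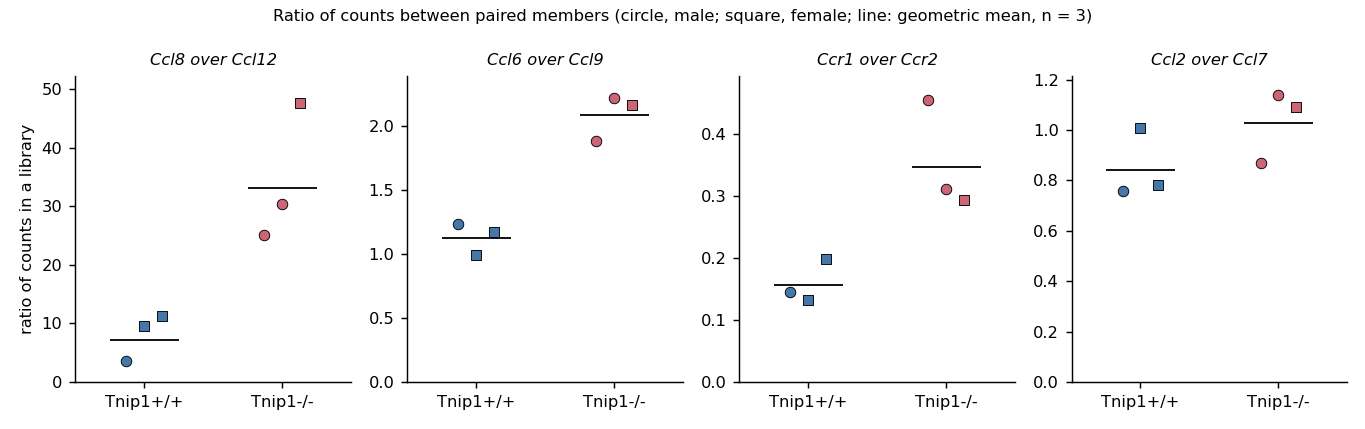
Ratio of counts within each library (vertical axis, starting at 0) for Ccl8 over Ccl12, Ccl6 over Ccl9, Ccr1 over Ccr2 and Ccl2 over Ccl7, with male libraries as circles, female libraries as squares and the geometric mean as a line. The genotypes are apart in the first 3 panels and overlap in the last.

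The ligand genes sit in a pair of clusters on chromosome 11 and the receptor genes in a cluster on chromosome 9, and each cluster held called genes of both directions. In the MCP cluster the map order (RefSeq, GRCm38.p6) is Ccl2, Ccl7, Ccl11, Ccl12, Ccl8 and Ccl1. Ccl11, which encodes the eosinophil attractant eotaxin, lies between Ccl7 and Ccl12 and fell by 2.12 on the log2 scale (SE 0.42, edgeR adjusted p = 0.00716). In the MIP cluster Ccl5, the gene of the T cell and monocyte attractant RANTES, fell by 1.61 (SE 0.45, edgeR adjusted p = 0.0254), whereas Ccl3 and Ccl4 at the other end rose. Leaving out knockout replicate 2 (-1.25) or 3 (-1.51), or replicate 1 (-1.46) or 2 (-1.55) of the wild type, ended the Ccl5 call, as did the muscle and fat covariate (-0.57). Between Ccr1 and Ccr2 lies Ccr3, the eotaxin receptor gene, which fell by 1.81 (SE 0.55, edgeR adjusted p = 0.0338) and kept its call without wild type replicate 1 (-2.21) but not without any other single library (-1.24 to -1.87).

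**Figure D5:**
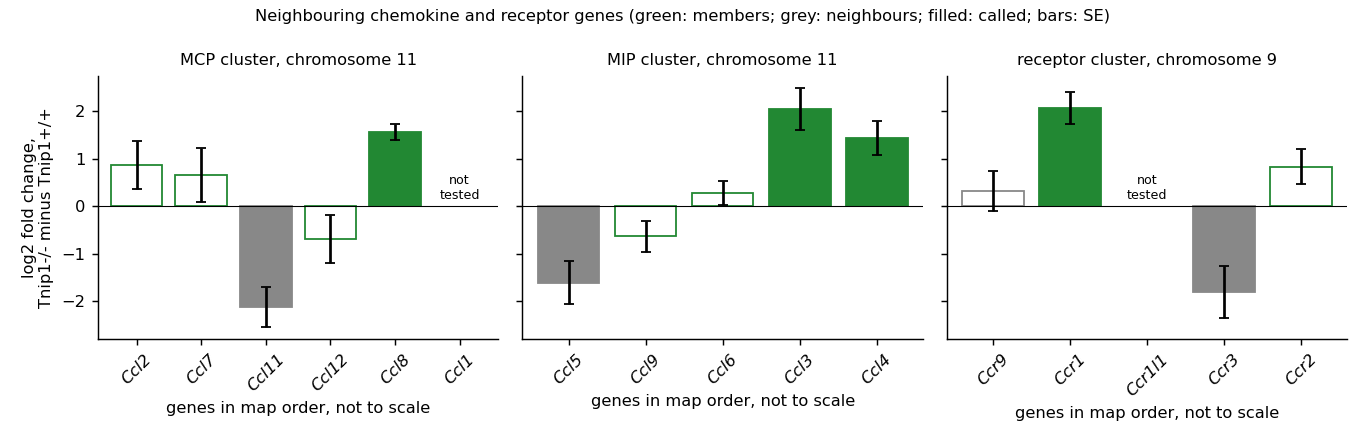
Log2 fold change, Tnip1-/- minus Tnip1+/+ (vertical axis), of members (green) and neighbouring genes (grey) in map order along 3 clusters, with SE as error bars and filled bars for an adjusted p under 0.05. Ccl8, Ccl3, Ccl4 and Ccr1 are filled upward and Ccl11, Ccl5 and Ccr3 downward.

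Other CC chemokine ligand genes were lower or did not pass the test. Of 15 listed, 12 were tested, 0 rose and 7 fell (Ccl27a, Ccl21c, Ccl22, Ccl24, Ccl11, Ccl21b and Ccl5), with a median log2 fold change of -0.91 against -0.04 for all genes tested. Of all genes tested 22.3% were called higher and 22.7% lower, and these shares stand beside each list below. Ccl27a, the keratinocyte chemokine that attracts skin-homing T cells, stood at 42.2, 36.5 and 29.5 CPM in wild type and 4.22, 4.79 and 4.81 CPM in the knockouts. Ccl22, a ligand of CCR4 made by dendritic cells, fell by 1.73 (SE 0.31), and Ccl24, another eotaxin, fell by 2.43 (SE 0.46). The knockout libraries held 11, 21 and 5 counts of Ccl24 and 31, 9 and 13 of Ccl5. Both genes passed the filter only with the wild type libraries, so their calls are a description. The Ccl21 copies and Ccl27a with its copy Ccl27b are near-identical, so their counts are uncertain. With the muscle and fat covariate 3 of the 12 were lower, and without knockout replicate 3 there were 2 higher, Ccl20 among them.

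Among the other CC receptor genes, 7 of 9 were tested, 0 rose and Ccr3 fell. Ccr8, the receptor gene for mouse CCL8, was low, at 0.510, 0.748 and 0.814 CPM in wild type and 0.302, 0.593 and 0.366 CPM in the knockouts (-0.70, edgeR adjusted p = 0.163). Ccr4 (-1.25), Ccr7 (-0.99), Ccr6 (0.53) and Ccr9 (0.32, all log2) did not pass either.

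Atypical receptors do not signal for migration, and some of them bind chemokines and remove them. Of 4 such genes tested, 0 rose and 2 fell, near the 45.1% of all genes tested that were called either way. Ccbp2, also called Ackr2, encodes the scavenger of inflammatory CC chemokines including CCL2, CCL3 and CCL4. It stood at 19.5, 15.5 and 13.1 CPM in wild type and 5.39, 6.86 and 4.44 CPM in the knockouts, without overlap, and fell by 1.53 (SE 0.22, edgeR adjusted p = 0.00285). Ccrl1, also called Ackr4, encodes the scavenger of CCL19, CCL21 and CCL25 and fell from 43.0 ± 3.89 to 5.12 ± 0.799 CPM (SD, n = 3). Ccrl2 and Darc did not pass the test (0.33 and 0.25). The calls of Ccbp2 and Ccrl1 held in all 17 alternatives.

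Among components that act after the receptors, the share called was near that of all genes tested (45.1% either way). Of 16 genes for G-protein subunits, kinases, arrestins and the sulfotransferases of chemokine receptors, 4 rose and 2 fell, with a median of 0.09. Gnai3, an inhibitory G-protein subunit gene, rose by 0.75 (SE 0.13), Grk6, a receptor kinase gene, by 0.78 (SE 0.15), and Nup85, whose product also binds CCR2, by 0.95 (SE 0.18). Tpst1, a tyrosine sulfotransferase gene, fell by 0.60 (SE 0.13). None of the 6 calls held with the muscle and fat covariate, and 1 gene was lower in each fit with a library left out.

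Genes by which white blood cells leave vessels were higher in part, 6 of 12 with 0 lower and a median of 0.63. Selp, the endothelial P-selectin gene, stood at 2.13, 3.02 and 1.48 CPM in wild type and 17.8, 8.39 and 8.25 CPM in the knockouts (log2 2.37, SE 0.40, edgeR adjusted p = 0.00442). The integrin gene Itgal rose by 1.33 (SE 0.17), and Itgb2, which encodes the partner chain of Itgal, by 0.66. The number higher was 3 without knockout replicate 1 and also without replicate 1 or 3 of the wild type, and 3 with the sex or the muscle and fat covariate.

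Among the inducers and mRNA decay factors of chemokine genes, 7 of 15 tested rose and 2 fell, with a median of 0.61. Il6, among the 7, had 28, 18 and 7 counts in the wild type libraries and passed the filter only with the knockout libraries. Il1b, whose product induces Ccl2 and Ccl3 in many cell types, stood at 11.5, 12.9 and 4.55 CPM in wild type and 76.4, 64.1 and 66.2 CPM in the knockouts (log2 2.83, SE 0.36, edgeR adjusted p = 0.00184). Nfkb1 rose by 0.80 (SE 0.15), and Irf1, an interferon factor gene, fell by 0.68, a call that was lost without knockout replicate 2. The number higher was 3 when knockout replicate 1 or wild type replicate 2 was omitted and 2 if wild type replicate 3 was left out, and with the muscle and fat covariate it was 1. Of 7 other monocyte attractants and growth factors, Mif (0.91) and Rarres2 (0.75) rose and Il34 (-0.80) fell, while Cxcl12 (0.52) did not pass. The Rarres2 call was lost without knockout replicate 1 (0.64) or 2 (0.80), and the Il34 call without knockout replicate 2 (-0.82) or 3 (-0.60) and without replicate 1 (-0.66) or 3 (-0.73) of the wild type.

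Monocytes carry CCR2 and macrophages make many of these ligands. The monocyte list had 7 of 14 higher and 1 lower, with a median of 0.41, but its summed level overlapped, at 867 to 1266 CPM in wild type and 1037 to 1266 CPM in the knockouts. Chi3l3, a gene of activated myeloid cells, rose by 7.0 (SE 0.22), Treml4, a gene of patrolling monocytes, by 2.12, and Cd14, the co-receptor gene for bacterial lipopolysaccharide, by 1.69 (SE 0.35). Treml4 had 11, 15 and 9 counts in the wild type libraries and passed the filter only with the knockout libraries, so its call is a description. Ly6c1, which endothelial cells express too, fell by 2.30 (SE 0.27), and Ly6c2, the marker gene of inflammatory monocytes, stood at 16.6, 22.3 and 11.4 CPM in wild type and 13.6, 8.30 and 9.14 CPM in the knockouts (-0.70, edgeR adjusted p = 0.0869). The number of monocyte markers higher was 4 without knockout replicate 2 and 2 with the muscle and fat covariate, and 3 were lower without wild type replicate 3 or with the sex covariate.

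In the macrophage list 3 of 14 rose, Lyz2 and Mrc1 among them, and 0 fell, with a median of -0.30 and an overlapping sum of 1643 to 2575 CPM in wild type and 2349 to 2971 CPM in the knockouts. The number that rose is near the 22.3% of all genes tested that were called higher. Mrc1, the mannose receptor gene, rose by 1.09 (SE 0.23), while Emr1 (0.54), which encodes F4/80, and the complement genes C1qa, C1qb and C1qc stood at -0.47, -0.52 and -0.13 and did not pass the test. With the muscle and fat covariate 1 macrophage gene was higher, and with library totals alone 2 were lower.

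Neutrophil markers stood apart most. Of 12 markers 9 passed the filter, and each of those rose, by 2.29 (Csf3r) to 7.18 (S100a9) with Mmp8 at 4.85. Some were so low in wild type skin that they pass only through the knockout libraries, so this count is a description. The sum was 29.1 to 166 CPM in wild type and 7406 to 12088 CPM in the knockouts, most of it S100a8 and S100a9, which stressed keratinocytes express too. Cxcr2, a neutrophil chemokine receptor gene, stood at 5.28, 5.78 and 2.96 CPM in wild type and 48.6, 36.0 and 33.6 CPM in the knockouts. The listed markers Ly6g, Mpo and Elane were too low to test, with 0, 6 and 6 counts over the wild type and 13, 19 and 2 over the knockout libraries. Neutrophils express Ccr1, Ccl3 and Ccl4, and the part of these cells in the 3 increases was not tested. Langerhans and dendritic cell markers had 0 of 8 tested higher, 6 lower (Cd207 at -2.85, Mgl2 at -3.18, Xcr1 at -2.13 and Flt3 at -1.48 among them) and a median of -1.48, or 2 lower with the muscle and fat covariate. Xcr1 had 14, 16 and 6 counts in the knockout libraries and passed the filter only with the wild type libraries, so its call is a description.

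In the T cell list 0 of 8 were higher and 3 lower (Thy1, Cd3e and Cd3g), where 22.7% of all genes tested were called lower. Cd2 (-0.73), Cd4 (-0.36), Cd3d (0.15), Cd8a (0.27) and Lck (0.54, all log2) did not pass the test. The number of T cell markers lower was 1 without knockout replicate 1 or 3 and likewise without replicate 2 or 3 of the wild type. The mast cell list had 2 of 8 higher, the IgE receptor gene Fcer1a (1.98) and the tryptase gene Tpsab1 (2.18), 0 lower and a median of -0.46. Of all genes tested 22.3% were called higher. The other 6 mast cell markers, among them Mcpt4 (-0.54), Cma1 (-0.54), Cpa3 (-0.52) and Kit (-0.40), had negative values and did not pass the test. The number higher was 1 without knockout replicate 2 or a female wild type library. Tpsab1 had 17, 5 and 9 counts in the wild type libraries and passed the filter only with the knockout libraries, so its call is a description. Of 7 endothelial markers Tie1 rose by 0.46 while Tek (-1.10), Kdr (-0.72) and Cdh5 (-0.77) fell, with a median of -0.72. The number lower was 1 without knockout replicate 1 or 2 and without replicate 1 or 2 of the wild type, and the Tie1 call was lost without knockout replicate 2 or 3, without replicate 1 or 3 of the wild type, and with library totals alone or upper-quartile factors. Of 7 fibroblast markers Dpt (-1.05), Dcn (-0.82) and Lum (-0.53) fell and 0 rose, with 1 lower without knockout replicate 2 or 3. Pdgfra (0.37) did not pass the test, although every knockout library was above every wild type library. Fits without single libraries gave 0 to 1 fibroblast markers higher. Col1a1 stood at 2354, 180 and 317 CPM in wild type and 537, 420 and 368 CPM in the knockouts. The fibroblast sum overlapped, at 6702 to 16784 CPM in wild type and 6298 to 7024 CPM in the knockouts. Muscle markers fell in 7 of 7 and adipocyte markers in 3 of 7, which became 5 without knockout replicate 2, and 1 if knockout replicate 3 or wild type replicate 2 was left out. Lep, among the 3, had 300, 1 and 65 counts in the knockout libraries and passed the filter only with the wild type libraries. The part of these shifts in tissue makeup in the chemokine values was not tested beyond the covariate.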

How the data were processed

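RNA was measured in skin of 3 wild type and 3 knockout mice. Per the labels' protocols, RNA isolated with TRIzol went through ribosomal depletion and a stranded library kit. The authors deposited counts, whole numbers per gene symbol. The submitters' processing notes name CASAVA 1.7, STAR, BWA, HTSeq, limma, R 3.2.3 and mm9. The strand option was not given in the sources used here. Annotated antisense genes overlap Ccl2 and Ccl6 in GENCODE. The counter's 5 summary lines (26.7% to 30.3% of each file) were left out.

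Differences were tested with edgeR 4.0.16 in R 4.3.3 (TMM, filterByExpr, quasi-likelihood fit, Benjamini-Hochberg over 16691 genes), a procedure tested on simulated data. Far fewer genes changed in the simulation than were called here, as many up as down. The simulation therefore does not test the scaling under a broad change. SE was derived from the fold change and F statistic. A gene with 3 counts stood at 0.0900 to 0.157 CPM, a floor that was set by choice and not measured. Exon lengths came from GENCODE M21, alignments from Biopython 1.88.

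The members and the 18 lists were chosen with earlier results of these data known. Named genes are the members, Tnip1, the 4 of smallest p in each list and the other CC receptors, apart from a few that are not reported here. Ccl5, Ccl11, Ccl20, Ccl21b, Ly6c2, Krt10, S100a8, the C1q genes and the untested genes were named after their values were seen, and the sex covariate and the ratios were chosen then. Il6, Mcpt4, Cpa3, Kit, Cd3d, Cd4, Cd8a, Lck, Nr4a1, Ace, Cx3cr1, Spn and Col1a1 were named in the same way. Alternatives covered DESeq2 1.42.0, limma 3.58.1 voom, other scaling, filters and dispersion, a replicate block, each library left out, haemoglobin, mitochondrial, keratin and collagen genes removed, and muscle and fat or sex covariates.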

Additional observations from a re-analysis of the deposited data

How the results depend on the processing

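Over 17 alternatives the number of members called higher was 3 to 5 with the exception of the muscle and fat covariate (2, Ccl8 and Ccr1), and the number lower was 0 with the exception of the sex covariate (1, Ccl12). The muscle and fat score itself separates the genotypes, so its fit has little room to tell them apart, and 902 genes were higher and 728 lower there against 3730 and 3795. Leaving out each library gave 3 to 5 members higher, 0 lower, 2792 to 3421 genes higher and 2679 to 3445 lower. The replicate numbers were not treated as pairs in the main test. Correlations of deviations between same-numbered libraries were 0.0115, -0.209 and 0.193, and not every library correlated best with its own number. Such correlations cannot show whether the mice were paired. With the replicate block 5 members were higher and 0 lower (Ccl2 passed at 0.72, edgeR adjusted p = 0.0482), with 3323 genes higher and 3142 lower.

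Signs turned for Ccl7 without knockout replicate 1 (-0.054 to 1.08 without single libraries), Ccr6 without knockout replicate 2 (-0.16 to 0.83), Ccrl2 without knockout replicate 3 (-0.051 to 0.58) and, with the muscle and fat covariate, Ccr6 (-0.93), Ccr9 (-0.11), Darc (-0.19), Fabp4 (0.035) and Adipoq (2.19). The latter 2 are part of that score, and for the others the cause was not tested. Ccl3 and Ccl4 rest on 38 to 211 counts a library, and 3 libraries a group limit the calls. Whether same-group libraries differ for technical reasons was not tested.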

Other observations

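Chemokine and receptor genes too low to test were counted over the groups. Ccl28, an epithelial chemokine gene, had 21 counts in wild type and 45 in knockout libraries (ratio of depth-scaled counts 2.62, 95% exact interval 1.53 to 4.62, counting error only). Ccl1, the other CCR8 ligand gene, had 12 and 17 counts (1.73, interval 0.778 to 3.97). Ccr10, the receptor gene for CCL27 and CCL28, had 7 and 12 counts (2.09, interval 0.759 to 6.27). Ifng, a strong inducer of chemokine genes, had 22 counts in wild type and 2 in knockout libraries (0.111, interval 0.0126 to 0.451).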
